A study of Mus musculus with 6 samples.

Results

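Erythroid transcripts were examined in RNA of whole splenic B cells from adult mice of 3 groups, with 2 Affymetrix MG_U74Av2 arrays per group. The genes are Alas2, Hemgn, Epor, Klf1, Gata1, Car2, Hba-a1, Hbb-b2 and Slc4a1, and every probe set annotated to 1 of these 9 symbols alone was taken. This gave 11 of the 12422 probe sets on the array that are not controls. A further 3 probe sets carry several globin symbols and are described apart.

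The Btk KO group is a knockout of Btk that was made on the background labelled SW129 and back-crossed to CBA for 9 generations. The Xid group is CBA/N, with the R28C point mutation in Btk, a kinase needed for B cell receptor signalling. The CBA group is wild type. A first set of arrays, with 1 per group, was followed by a second set with new RNA from new mice, here called set 1 and set 2. Neither the number of mice behind each RNA nor the way the B cells were isolated is in the labels. In both mutant groups the Btk lesion and other differences of the line or strain from CBA cannot be told apart.

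Red cells are made from progenitors that answer to erythropoietin, and in mice the spleen is a site of red cell production besides the bone marrow. The transcription factors Gata1 and Klf1 bind GATA and CACC motifs and drive the genes for heme synthesis, globins and the red cell membrane. Reticulocytes, the youngest red cells of the blood, still hold globin RNA.

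The arrays of set 1 came from 1 chip lot and those of set 2 from another, per the file headers. Btk KO of set 1 was hybridised on a day of its own. Its intensity ratio of 3' to 5' control probe sets was 10.4 for Gapdh, against 0.756 to 1.61 on the other 5 arrays, and 3.61 for beta-actin, against 1.10 to 1.66. The B cell markers Cd79a and Ms4a1 were bright in every group, at 3524 for Cd79a in Btk KO and 5646 in CBA (mean scaled intensity, n = 2). Btk measured 225 in Btk KO, 742 in Xid and 812 in CBA on its brighter probe set. Btk KO minus CBA was -1.86 ± 0.27 (log2, SE), and limma gave an adjusted p of 0.052, or 0.0053 with the set as a replicate block. Having 6 arrays in all limits the precision throughout.

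Spellings of the motifs that Gata1 and Klf1 are known to read were searched in the reference sequences around the starts of the genes. RefSeq's promoter table held a window of 300 bases, 250 before the start and 50 after it, for 6 of the 9 genes on GRCm38.p6. Of these 6 windows, 5 hold at least 1 of the GATA spellings AGATAA and TGATAA plus AGATAG and TGATAG on either strand, against 29.8% of 32817 windows of the same length over all genes. The CACC spelling CCNCNCCC occurs in 4 of the 6, against 49.5% of all windows, and TATAAA in 2 of the 6, against 13.6%. Matches of CCNCNCCC can overlap each other, and in the Hemgn window they lie in 1 run of G. The window of Gata1 holds no GATA spelling and 3 matches of CCNCNCCC, and the windows of Klf1 and Hba-a1 hold no match of CCNCNCCC. The 250 bases before the start are printed for the other 5 genes, each of which holds a GATA spelling. Capitals mark every match of the GATA, CACC and TATA spellings on either strand. The sequence is that of the reference mouse and not of the CBA strains, and a match is not a site shown to be bound.
Klf1, chr8:84901732-84901981, plus strand: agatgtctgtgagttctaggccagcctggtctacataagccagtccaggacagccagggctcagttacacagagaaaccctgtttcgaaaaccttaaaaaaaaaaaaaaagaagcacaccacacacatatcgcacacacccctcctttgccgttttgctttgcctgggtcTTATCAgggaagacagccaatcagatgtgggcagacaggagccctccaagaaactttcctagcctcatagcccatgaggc
Hemgn, chr4:46404184-46404433, minus strand: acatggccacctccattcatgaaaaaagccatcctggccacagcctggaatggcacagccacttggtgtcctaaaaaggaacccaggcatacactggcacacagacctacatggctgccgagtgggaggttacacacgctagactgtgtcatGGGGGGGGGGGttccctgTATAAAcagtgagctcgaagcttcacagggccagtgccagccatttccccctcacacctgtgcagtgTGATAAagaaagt
Epor, chr9:21963577-21963826, minus strand: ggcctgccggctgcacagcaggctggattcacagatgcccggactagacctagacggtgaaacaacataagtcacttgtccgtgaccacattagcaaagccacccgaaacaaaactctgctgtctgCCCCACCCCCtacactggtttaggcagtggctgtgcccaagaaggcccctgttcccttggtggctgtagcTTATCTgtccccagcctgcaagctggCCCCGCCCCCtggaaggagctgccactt
Alas2, chrX:150547167-150547416, plus strand: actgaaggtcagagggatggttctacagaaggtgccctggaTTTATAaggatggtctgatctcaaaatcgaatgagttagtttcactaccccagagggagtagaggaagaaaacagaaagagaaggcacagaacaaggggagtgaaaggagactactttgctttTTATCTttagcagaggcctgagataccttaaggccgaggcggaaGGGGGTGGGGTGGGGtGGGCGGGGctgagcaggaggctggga
Hba-a1, chr11:32283422-32283671, plus strand: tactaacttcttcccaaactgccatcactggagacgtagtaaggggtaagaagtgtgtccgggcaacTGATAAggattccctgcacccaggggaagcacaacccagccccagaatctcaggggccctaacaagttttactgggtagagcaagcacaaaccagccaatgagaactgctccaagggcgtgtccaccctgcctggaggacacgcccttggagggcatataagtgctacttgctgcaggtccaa

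The GATA spelling lies at -80 to -75 in Klf1, at -13 to -8 in Hemgn, at -54 to -49 in Epor, at -86 to -81 in Alas2 and at -183 to -178 in Hba-a1, counted from the start of the gene. A second one in Hemgn lies after the start, at 29 to 34, outside the bases printed.

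Most erythroid probe sets read higher on both Btk KO arrays than on any CBA array, and none passed the test across all probe sets. Of the 11 probe sets, 9 were bright enough to be tested. Their mean over the 6 arrays, taken on the log2 scale, corresponds to an intensity above about 19.8. Among these 9, the groups Btk KO and CBA did not overlap for 8, each higher in Btk KO, and the same 8 were higher within both sets, against 31.4% of all probe sets. Over all 7453 probe sets tested, 20.0% were higher in Btk KO without overlap. Limma called 0 of the 9 at an adjusted p under 0.05, against 0.174% of all probe sets, and 8 of the 9 had an unadjusted p under 0.05, against 8.83%. With the replicate block limma also called 0 of the 9, against 2.23% of all. In such bulk samples a different number of erythroid cells and a different amount of RNA per cell cannot be told apart.

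**Figure D1:**
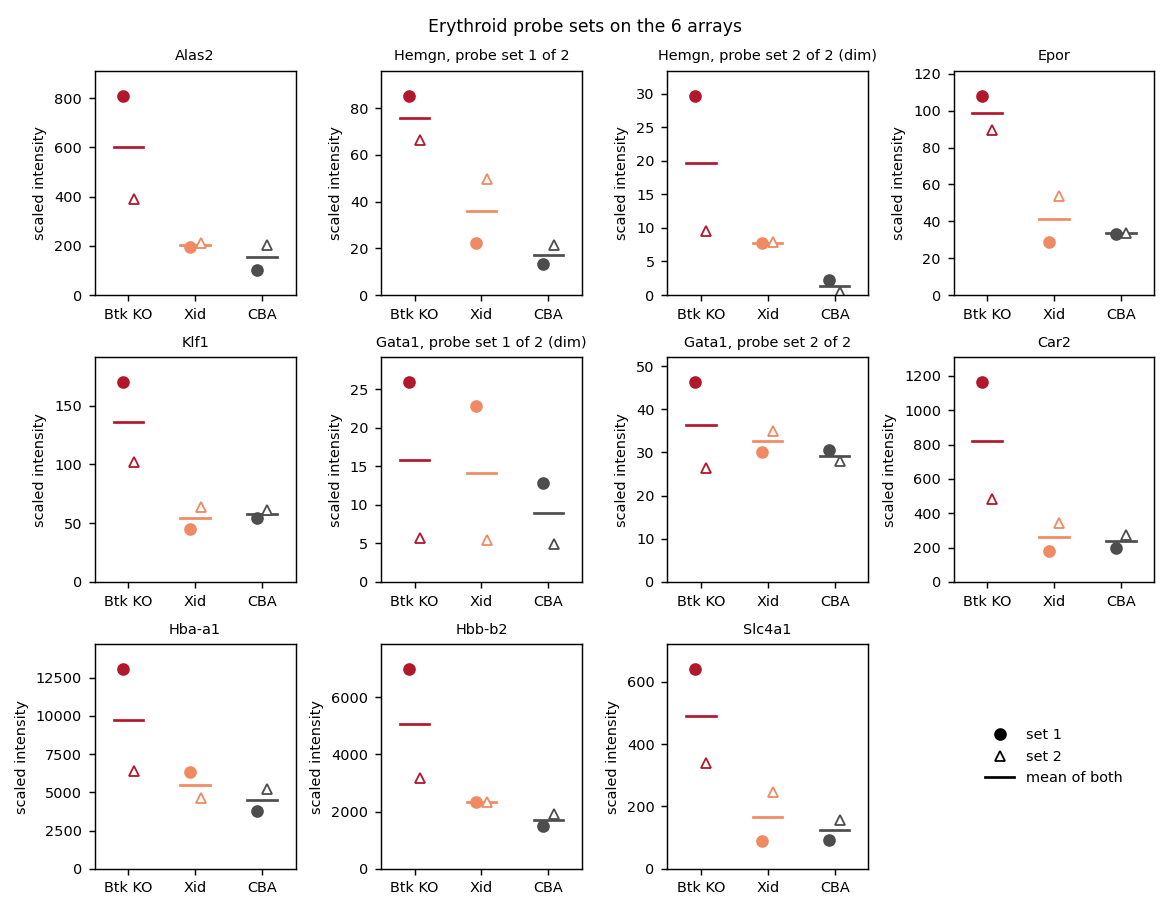
Scaled intensity of each erythroid probe set (vertical axis, linear from 0) on the Btk KO, Xid and CBA arrays (horizontal axis). Filled circles are set 1, open triangles set 2 and bars the mean of both, and probe sets too dim to be tested are marked. Btk KO of set 1 is the highest point in every panel, and for 8 of the 9 tested probe sets Btk KO of set 2 lies above both CBA arrays.

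Among the transcription factors Klf1, which switches on the adult globin genes, and Gata1, the lineage factor of red cells, megakaryocytes and mast cells, stood apart from each other. Klf1 (probe set 100452_at) read 169.7 and 102.3 in Btk KO, 45.4 and 64.1 in Xid and 54.0 and 61.4 in CBA, set 1 before set 2. Both Btk KO arrays lay above all 4 others, and Xid and CBA overlapped. The difference between Btk KO and CBA was 1.12 ± 0.31 (log2, SE; limma adjusted p = 0.29). The tested Gata1 probe set (161456_f_at) read 46.2 and 26.4 in Btk KO, 30.2 and 35.0 in Xid and 30.5 and 28.0 in CBA. Here Btk KO of set 1 was the highest array and Btk KO of set 2 the lowest, and all 3 groups overlapped. The difference between Btk KO and CBA was 0.22 ± 0.34 (limma adjusted p = 0.92), and without Btk KO of set 1 it was -0.12. The suffix of this probe set marks probes that can read a family of related sequences. The other Gata1 probe set, too dim to be tested, read 25.9 and 5.7 in Btk KO, 22.9 and 5.5 in Xid and 12.9 and 4.9 in CBA. It was thus higher in Btk KO than in CBA within both sets, at values too low to carry a fold. In all 3 groups it was higher in set 1 than in set 2.

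Hemgn encodes hemogen, a nuclear protein of blood cell precursors. Its tested probe set (94401_s_at) read 85.4 and 66.5 in Btk KO, 22.4 and 49.5 in Xid and 13.2 and 21.5 in CBA. The 3 groups followed each other without overlap, Btk KO highest and CBA lowest. Btk KO minus CBA was 1.82 ± 0.40 (limma adjusted p = 0.18, and 0.051 with the replicate block, the smallest of the 9 there). The CBA mean of 17.4 lies near the floor, and the difference was 1.13 with a pseudocount of 32 and 2.10 with a pseudocount of 1. The dim second Hemgn probe set had the same order of group means, at 19.7 in Btk KO, 7.80 in Xid and 1.40 in CBA, which is too low to carry a fold.

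Epor is the receptor for erythropoietin, the hormone that keeps red cell precursors alive. Epor (103997_at) read 108.2 and 89.3 in Btk KO, 28.6 and 53.5 in Xid and 33.0 and 33.9 in CBA. Its Btk KO arrays were the closest to each other of the 9 members, and both lay above the 4 other arrays. The difference between Btk KO and CBA was 1.40 ± 0.32 (limma adjusted p = 0.20), and it was 1.55 in set 1 and 1.26 in set 2.

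Alas2 is the erythroid form of the first enzyme of heme synthesis. Alas2 (92768_s_at) read 810.4 and 388.7 in Btk KO, 195.1 and 212.5 in Xid and 103.1 and 204.7 in CBA. Both Btk KO arrays again lay above the 4 others, while the higher CBA array lay between the Xid arrays. Btk KO minus CBA was 1.90 ± 0.41 (limma adjusted p = 0.17), the smallest adjusted p of the 9 without the block. Within set 1 the difference was 2.90, and within set 2 it was 0.91.

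The globin genes were the brightest members. Hba-a1, of the alpha chain, read 13054.9 and 6371.9 in Btk KO, 6333.9 and 4641.4 in Xid and 3777.1 and 5195.0 in CBA on probe set 94781_at. It ranked 2 and 7 from the brightest of the 12422 probe sets in Btk KO, 34 and 27 in Xid and 66 and 34 in CBA. The difference between Btk KO and CBA was 1.04 ± 0.39 (limma adjusted p = 0.49), and within set 2 it was 0.29, the smallest of the 8 members that were higher in both sets.

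Hbb-b2, an adult beta globin gene, read 6980.6 and 3184.7 in Btk KO, 2352.4 and 2335.6 in Xid and 1507.9 and 1927.5 in CBA on probe set 103534_at. Its 3 groups did not overlap, Btk KO highest and CBA lowest. Hbb-b2 differed between Btk KO and CBA by 1.46 ± 0.37 (limma adjusted p = 0.24), at 2.21 in set 1 and 0.72 in set 2. Adult globin genes are nearly identical to their neighbours, so a globin probe set may read more than the gene it is annotated to.

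The probe set annotated to both Hba-a1 and Hba-a2 (162457_f_at) read 3301.7 and 1461.0 in Btk KO, 860.8 and 876.8 in Xid and 676.6 and 713.0 in CBA. It rose with the replicate block, by 1.65 on the log2 scale in Btk KO against CBA (limma adjusted p = 0.039), and did not pass without it (0.17), nor with it once Btk KO of set 1 was left out (0.065). The bright probe set shared by 4 beta globin symbols (101869_s_at) read 13136.5 and 6790.5 in Btk KO, 7607.1 and 5466.4 in Xid and 4636.1 and 5881.4 in CBA. It was the brightest probe set of all on Btk KO of set 1, and the deposited values carry no mark of saturation. Its difference between Btk KO and CBA was 0.85 ± 0.38 (limma adjusted p = 0.57). The third shared probe set read at most 9.80 and carried no information.

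Slc4a1 encodes band 3, the anion exchanger that anchors the red cell membrane to its skeleton. Slc4a1 (101077_at) read 639.8 and 338.8 in Btk KO, 88.3 and 246.7 in Xid and 91.0 and 157.6 in CBA. It had the largest log2 difference between Btk KO and CBA of the 9, 1.91 ± 0.51 (limma adjusted p = 0.27), and the widest spread within Xid. Car2, the cytosolic carbonic anhydrase that works beside band 3 in carbon dioxide transport and is also made in other cells, read 1161.4 and 484.7 in Btk KO, 181.5 and 340.4 in Xid and 198.9 and 274.0 in CBA on probe set 92642_at. Both Btk KO arrays lay above the 4 others for both genes. The difference of Car2 between Btk KO and CBA was 1.66 ± 0.45 (limma adjusted p = 0.28).

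Over the 9 tested probe sets the median log2 difference between Btk KO and CBA was 1.46, against 0.01 over all 7453. The members varied among themselves from 0.22 for Gata1 to 1.91 for Slc4a1. Within set 1 the median was 2.21, and the 8 members other than Gata1 lay between 1.55 and 2.90, from the 98.4th percentile of all probe sets upwards. Within set 2 the median was 0.81, and the same 8 lay between 0.29 for Hba-a1 and 1.40 for Hemgn, at the 75.0th to 98.1st percentile. All 9 had a larger difference in set 1 than in set 2, as did 3452 of all 7453 probe sets. The order of the members also differed between the sets, since Alas2, Slc4a1 and Car2 led set 1 and Hemgn, Epor and Slc4a1 led set 2.

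**Figure D2:**
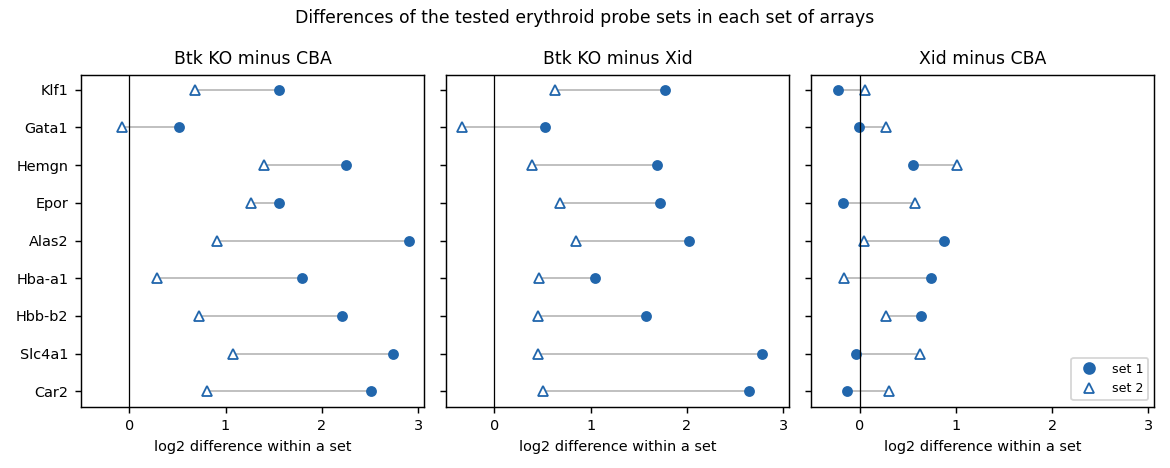
Log2 difference of each tested erythroid probe set (rows) within set 1 (filled circles) and set 2 (open triangles), for Btk KO minus CBA, Btk KO minus Xid and Xid minus CBA. In the panels with Btk KO all 9 circles lie right of their triangles. Of all 7453 probe sets, 3452 did so against CBA and 3846 against Xid. In the panel for Xid minus CBA the circles and triangles fall on both sides of 0.

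The 3' to 5' ratio of 10.4 and the hybridisation day of its own belong to the same Btk KO array that gave the larger erythroid values. Their part in the result was not tested. Without that array 8 of the 9 members still read higher in the remaining Btk KO array than in both CBA arrays, against 34.3% of all probe sets. The median difference was then 1.03 and limma again called 0 of the 9, against 0.161% of all, with a smallest adjusted p of 0.33. Where Btk KO of set 1 was instead the only Btk KO array, limma called 3 of the 9, namely Alas2, Car2 and Hbb-b2 (adjusted p = 0.031, 0.036 and 0.027), against 1.95% of all probe sets. That fit takes its spread from Xid and CBA alone and assumes that the lone Btk KO array varies like them. In Btk KO against Xid the same fit called 0.389% of all probe sets.

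The direction of the difference between the sets was not the same in the 3 groups. In Btk KO all 11 probe sets read higher in set 1 than in set 2, with a median of 0.91 over the 9 tested. In Xid 3 of the 11 and in CBA 3 of the 11 read higher in set 1, with medians of -0.45 in both groups. In these probe sets the Btk KO arrays thus differed from each other the opposite way to the other pairs. The share of all probe sets that read higher in set 1 was not computed. The median intensity of all probe sets was 37.7 and 37.0 in Btk KO, 36.6 and 36.1 in Xid and 35.6 and 32.7 in CBA. With 1 array per group and set the difference in direction could not be tested.

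The comparison of Btk KO with Xid asks whether the knockout differs from the point mutant. Btk KO read higher than Xid without overlap for 8 of the 9 members, against 14.2% of all probe sets, and the same number was higher within both sets, against 27.2%. Limma called 0 of the 9 without the block (against 0.0403% of all probe sets) and 0 with it (against 0.188%), and 7 of the 9 had an unadjusted p under 0.05 without the block, against 3.61%. The median difference was 1.20, at 1.72 in set 1 and 0.46 in set 2, against 0.00 over all probe sets. Slc4a1 had the largest difference, 1.61 ± 0.51 (limma adjusted p = 1.0), and Klf1 the smallest adjusted p, with a difference of 1.20 ± 0.31 (limma adjusted p = 0.91). Without Btk KO of set 1 the remaining Btk KO array lay above both Xid arrays for 8 of the 9, against 31.0% of all probe sets, and limma called 0, against 0.0671%. Gata1 differed by 0.53 in set 1 and -0.34 in set 2. This comparison shares its Btk KO arrays with the one against CBA, so it does not add a separate measurement of Btk KO.

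The comparison of Xid with CBA asks whether the point mutant differs from the wild type. Xid read higher than CBA without overlap for 2 of the 9 members, Hemgn and Hbb-b2, against 17.0% of all probe sets,, and 3 were higher within both sets, against 27.8%. Limma called 0 of the 9, against 0.0671% of all, and 0 had an unadjusted p under 0.05, against 4.43%. With the block it also called 0, against 0.483%. Hemgn had the largest difference, 0.79 ± 0.40 (limma adjusted p = 1.0). The median difference over the 9 was 0.29 over both sets, -0.01 in set 1 and 0.28 in set 2. The members did not go together. Alas2, Hba-a1 and Hbb-b2 differed by 0.88, 0.74 and 0.64 in set 1 and by 0.05, -0.16 and 0.28 in set 2. Epor, Slc4a1 and Car2 differed by -0.17, -0.04 and -0.13 in set 1 and by 0.58, 0.63 and 0.31 in set 2. Klf1 differed by -0.08 ± 0.31 over both sets.

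**Figure D3:**
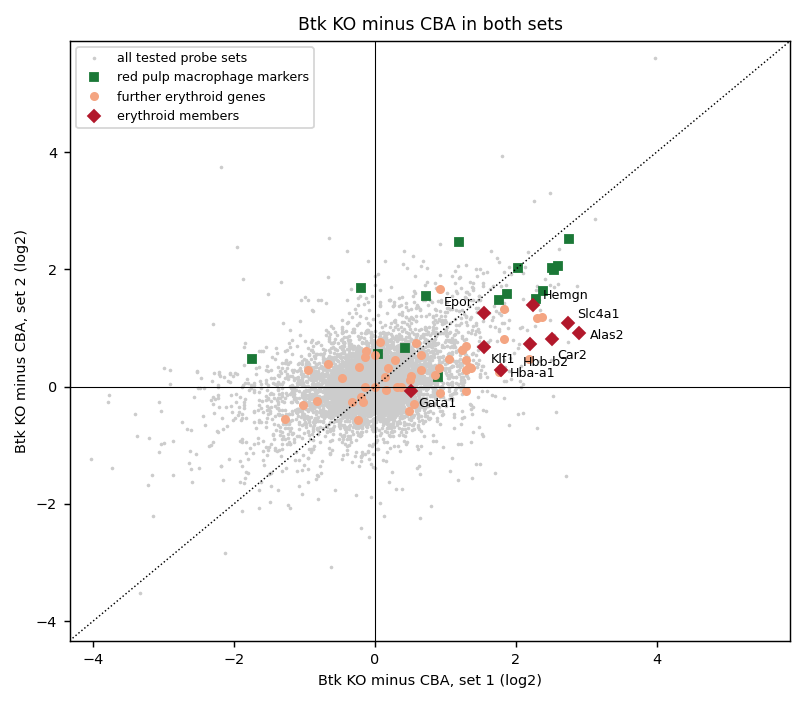
Log2 difference between Btk KO and CBA in set 1 (horizontal axis) and set 2 (vertical axis) for all 7453 tested probe sets (grey), the erythroid members (red diamonds), further erythroid genes (orange circles) and red pulp macrophage markers (green squares). The dotted line marks equal differences, and all 9 erythroid members lie below it, as do 3452 of the 7453.

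A list of 77 further erythroid genes was read beside the members, of which 47 were measured on 69 probe sets and 39 could be tested on 49. Without the block limma called 0 of the 49 in Btk KO against CBA, where 0.174% of all probe sets were called, and 14 had an unadjusted p under 0.05, where 8.83% of all did. With the block it called 1, higher in Btk KO, or about the share of 2.23% of all probe sets. Of the 49, 3 passed the filter only through Btk KO, namely Aldh1a1, Aqp1 and Car1 on 1 probe set each, while none of the 9 members did. The median difference was 0.31, at 0.50 in set 1 and 0.28 in set 2. In Btk KO against Xid the median was 0.29, at 0.52 and 0.06, and in Xid against CBA it was 0.05, at -0.02 and 0.19. Limma called 0 of the 49 in both of these comparisons, with and without the block, and 8 of them in Btk KO against Xid and 1 in Xid against CBA had an unadjusted p under 0.05, where 3.61% and 4.43% of all probe sets did.

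The probe set that rose with the block was that of Bpgm, the enzyme that makes the red cell regulator of oxygen binding. Bpgm read 486.3 and 240.6 in Btk KO, 118.2 and 134.5 in Xid and 89.5 and 102.7 in CBA. The groups did not overlap, and Btk KO differed from CBA by 1.77 ± 0.33 (limma adjusted p = 0.12 without the block and 0.032 with it, and 0.062 with it once Btk KO of set 1 was left out). Red cell enzymes had a median of 0.51 over 10 probe sets with Bpgm, at 0.49 in set 1 and 0.47 in set 2. Over the 9 others it was 0.42, at 0.07 in set 1 and 0.45 in set 2. These 9 include the Aldh1a1 and Car1 probe sets that passed the filter only through Btk KO, which raises the medians. Aldh1a1 read 111.6 and 51.3 in Btk KO against 17.8 and 19.4 in CBA on the probe set that was bright enough only in Btk KO, and a second Aldh1a1 probe set differed by -0.34. Prdx2, an abundant peroxidase of red cells, read 1049.6 and 515.2 in Btk KO against 403.3 and 414.1 in CBA on its bright probe set. Gclm, of glutathione synthesis, differed by 0.61.

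Genes of the red cell membrane and its skeleton had the highest median of the subgroups, 1.01 over 8 probe sets, at 1.11 in set 1 and 0.38 in set 2. Rhag, the Rh-associated glycoprotein, read 190.5 and 139.9 in Btk KO against 49.4 and 52.5 in CBA. Dmtn, which encodes the actin-bundling protein dematin, read 51.3 and 88.7 in Btk KO against 24.3 and 24 in CBA, so that its difference was larger in set 2. Ank1, which links band 3 to spectrin, differed by 0.48 on its dimmer tested probe set and read 253.5 and 144.4 in Btk KO against 99.1 and 86.8 in CBA on the brighter one. The water channel Aqp1 read 61.0 and 38.2 in Btk KO against 8.7 and 25.9 in CBA, and was bright enough only in Btk KO. Of the 8 probe sets, 6 were higher in Btk KO without overlap, against 20.0% of all. The other 2 were Cd24a, lower without overlap at -0.18, and the glucose transporter Slc2a1, at -0.07, both named after their values were seen. None of the 8 passed with or without the block.

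Heme synthesis genes other than Alas2 had a median of 0.47 over 8 probe sets, at 0.89 in set 1 and 0.05 in set 2. Alas1, the form found in all tissues, read 219.6 and 181.5 in Btk KO against 102.8 and 129.3 in CBA, and Alad differed by 0.52. Cpox differed by 0.61 and 0.79 on its probe sets and Ppox by 0.42. Genes of late maturation had a median of 0.45 over 6 probe sets, with Xpo7, a nuclear export factor, at 0.93 and 0.84, Ube2o, a ubiquitin enzyme of reticulocytes, at 0.59 and 0.13, Ubac1 at 0.31 and Mxi1 at 0.05. With or without the block limma called 0 of these.

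The erythroid transcription factors besides Klf1 and Gata1 had a median of -0.02 over 12 probe sets, and 6 were lower and 4 higher in both sets. Nfe2, a factor of globin gene control, read 103.5 and 59.6 in Btk KO against 24.6 and 31.5 in CBA, a difference of 1.32 ± 0.40 (limma adjusted p = 0.36). Of the factors below CBA in both sets, Ldb1 differed by -0.92, Zbtb7a by -0.67 and Lmo2 by -0.53 and -0.22, and none of these passed. Iron supply genes had a median of 0.05 over 5 probe sets. Among them Tfrc, the transferrin receptor, differed by 0.05, Tfr2 by 0.38, Abcb10 by 0.15 and Slc11a2 by 0.01 and -0.16.

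**Figure D4:**
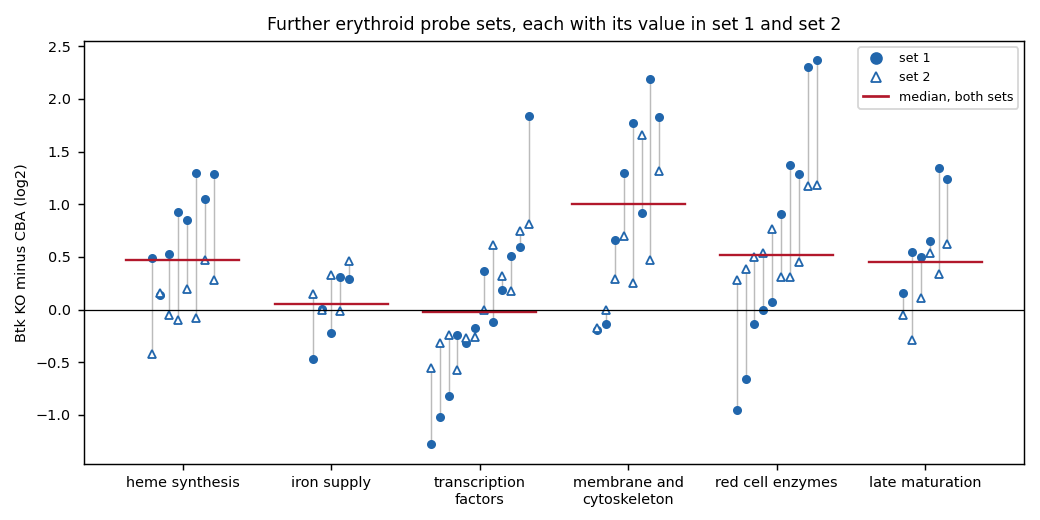
Log2 difference between Btk KO and CBA for each tested probe set of the further erythroid genes, by subgroup (horizontal axis), with set 1 as filled circles, set 2 as open triangles and the subgroup's median over both sets as a red bar. The medians are highest for membrane and cytoskeleton at 1.01 and near 0 for transcription factors at -0.02 and iron supply at 0.05.

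The mean profile of the 9 members, each centred on its own mean over the 6 arrays, was 1.24 and 0.42 in Btk KO, -0.51 and -0.03 in Xid and -0.76 and -0.36 in CBA (log2). The 8 genes with the most similar profile were Mgst3, Bpgm, Pdlim4, B3galt6, Msx1, Nfe2, Qk and Xpo7, with Pearson's r of 0.972 to 0.989 over the 6 arrays and of 0.942 to 0.977 without Btk KO of set 1. These arrays share groups and sets, and 49 of the 1806 probe sets compared had an r of at least 0.9. Mgst3, a glutathione transferase of membranes, was the most similar and read 134.1 and 79.0 in Btk KO, 47.0 and 62.6 in Xid and 47.2 and 55.8 in CBA. Of the 8, Bpgm, Nfe2 and Xpo7 were also on the list of erythroid genes. Pdlim4 passed the filter only through Btk KO, so its match to a profile that is highest there rests partly on the filter. It read 43.3 and 28.2 in Btk KO, 18.0 and 22.5 in Xid and 11.7 and 19.0 in CBA.

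Markers of other cell types also moved with the groups. Red pulp macrophages clear old red cells and hold contact with red cell precursors. Their 16 tested probe sets had a median of 1.78 in Btk KO against CBA, at 1.82 in set 1 and 1.6 in set 2. Of these, 14 were higher in both sets, against 31.4% of all probe sets. Limma called 4 of the 16, against 0.174% of all, and 10 with the block, against 2.23%. The summed intensity of all 17 macrophage probe sets was 9346 and 12421 in Btk KO, 5822 and 8685 in Xid and 2468 and 3853 in CBA. Within these sums C1qa, named after its values were seen, read 294.5 in set 1 and 1975.6 in set 2 of Btk KO. None of the 17 was at 0 on any array. Among the defining markers Mrc1 rose by 2.63 (limma adjusted p = 0.025), Spic by 2.32 and Vcam1 by 2.27 on its brightest probe set (0.025 each). In Xid against CBA the median was 1.17. There limma called 0 of the 16, against 0.0671% of all, and 6 with the block, against 0.483%.

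Neutrophil markers had a median of 2.48 over 7 probe sets and NK and cytotoxic cell markers a median of 1.37 over 8. Among these Ngp, the tested Mpo probe set and the dimmer Eomes probe set passed the filter only through Btk KO, so the medians rest partly on the filter. In Btk KO against CBA limma called 2 of the 7 neutrophil and 0 of the 8 NK cell probe sets, against 0.174% of all. With the block it called 4 of each, against 2.23% of all. The 4 neutrophil calls include Ngp (limma adjusted p = 0.044 with the block), which was bright enough only in Btk KO. Ngp read 40.8 and 258.3 in Btk KO, 6.3 and 11.6 in Xid and 7.4 and 11.2 in CBA. In Btk KO against Xid limma called 0 neutrophil probe sets, against 0.0403% of all, and 2 with the block, against 0.188%. The sum over 12 neutrophil probe sets was 942.7 and 1730 in Btk KO, 299.7 and 273.7 in Xid and 210.4 and 258.0 in CBA. The sum over 8 NK cell probe sets was 819.0 and 1607 in Btk KO, 490.2 and 798.1 in Xid and 337.0 and 480.6 in CBA. In these lists the sums were higher in set 2 than in set 1 of Btk KO, whereas all 11 erythroid probe sets were higher in set 1. The defining markers S100a8, Camp, Klra3 and Gzma differed by 2.72, 2.48, 1.58 and 1.68 in Btk KO against CBA. The neutrophil list was uneven. Its other tested probe sets differed by 3 for S100a9, 2.87 for Ngp, 0.46 for Mpo, 0.40 for Lcn2 and 0.27 for Elane. Elane was lower in Btk KO in set 1, at -0.47.

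Gata1 is also used by megakaryocytes and mast cells. Megakaryocyte and platelet markers had a sum of 95.6 and 107.1 in Btk KO, 75.1 and 82.4 in Xid and 89.8 and 68.7 in CBA over 7 probe sets, of which 2 were bright enough to be tested. Mast cell and basophil markers had a sum of 298.4 and 363.9 in Btk KO, 268.7 and 287.0 in Xid and 217.3 and 212.0 in CBA over 14 probe sets, 4 of them tested. In Btk KO against CBA limma called 0 of the 4 mast cell and 0 of the 4 T cell probe sets, against 0.174% of all. With the block it called 1 of each, against 2.23% of all. These were Cma1 and Zap70 (limma adjusted p = 0.017 and 0.012), both named after their values were seen. The other tested Zap70 probe set differed by 0.27 and was not called. B cell markers had a median of -0.65 over 10 probe sets in Btk KO against CBA, and 8 were lower in both sets. Their sum over 11 probe sets was 19085 and 17218 in Btk KO, 26055 and 19292 in Xid and 25689 and 24321 in CBA. T cell markers had a median of 0.42 over 4 probe sets, and Cd3e differed by 0.35. The part of any of these cell types in the erythroid values was not tested.

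**Figure D5:**
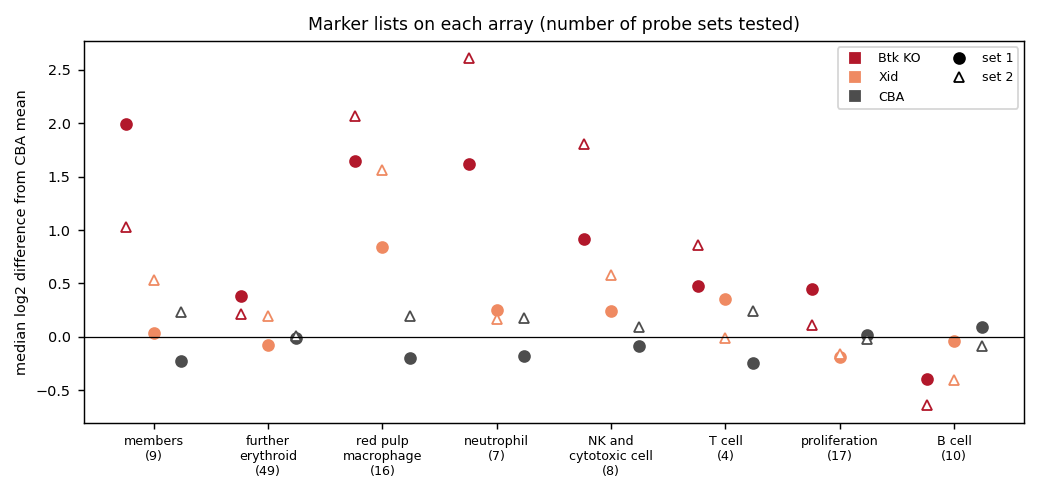
Median log2 difference from the CBA mean (vertical axis) of the tested probe sets of each marker list on each array, with the number of probe sets in brackets. Colours mark the groups, filled circles set 1 and open triangles set 2. For the erythroid members Btk KO of set 1 is at 1.99 and Btk KO of set 2 at 1.03. For red pulp macrophage, neutrophil and NK cell markers set 2 is the higher of the Btk KO arrays. Compared with the CBA array of the same set, the macrophage median was 1.82 in set 1 and 1.6 in set 2.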

How the data were processed

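Gene expression was measured in 6 samples of whole splenic B cells on Affymetrix MG_U74Av2 arrays. The deposited table gives 1 linear intensity per probe set and array, scaled by the authors, since the 2% trimmed mean was 100.06 on every array. The summary method is not given in the sources used here, and no further scaling was applied. Of 12488 probe sets 66 are controls. Of the rest, 10833 have 1 gene symbol in the probe annotation, 396 have several and 1193 have none, and 10817 symbols were matched by gene number to a RefSeq table of GRCm38.p6. Chip lot and hybridisation day were read from the scanner's header files.

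A pseudocount of 6 was added before log2 was taken. Probe sets with a mean log2 value above the 40th percentile were tested, 7453 in all. A limma model of the 3 group means (limma 3.58.1 in R 4.3.3, with lmFit and a trended eBayes) was fitted to all of them, with 3 residual degrees of freedom, and two-sided p-values were adjusted by Benjamini-Hochberg at 0.05. Every adjusted p is from limma over all probe sets of the fit. The method was tested on simulated data. Figures were drawn with matplotlib 3.10.9.

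The design label says that replicate 2 of each group was a new set, so replicate numbers mark sets. Arrays of one set deviated together from their group means, with correlations of 0.44 for Btk KO with Xid, 0.37 for Btk KO with CBA and 0.31 for Xid with CBA. The block is given where it changes a call or a count.

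The members and the gene lists were chosen with earlier results of these data known. Named are all members, up to 4 genes of each further erythroid subgroup by smallest p in Btk KO against CBA and those that passed in either fit, fixed markers of other cells, Btk, and the 8 genes most similar by Pearson's r. Probe sets with several symbols are named by all of them. Motifs were searched in RefSeq's promoter table.

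The alternatives tried were pseudocounts of 1 and 32, no filter or one at the 60th percentile, median centring, quantile normalization, the block, the block without Btk KO replicate 1, leaving out each array, fitting 2 groups at a time, eBayes without trend and 1 probe set per gene.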

Additional observations from a re-analysis of the deposited data

How the results depend on the processing

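With 2 arrays per group the spread rests on 3 residual degrees of freedom, and the deposited values carry no detection calls, so that dim probe sets have no stated background. Over 17 alternatives and 3 comparisons, 450 member values were recomputed. Of these 3 passed the threshold, all in Btk KO against CBA without Btk KO replicate 2, and 12 had the other sign. Leaving out each array in turn gave 0 to 3 called members and 0 to 5 called further erythroid probe sets in Btk KO against CBA, and 0 to 1 of the further erythroid probe sets in Btk KO against Xid. The highest counts came without Btk KO replicate 2, where 145 of all 7453 probe sets (1.95%) were called in Btk KO against CBA and 29 (0.389%) in Btk KO against Xid, while the 5 other fits that leave out an array called 0 to 12 and 0 to 5. With the replicate block 1 further erythroid probe set, Bpgm, was called in Btk KO against CBA, and the block changed no call of a member. The median member difference between Btk KO and CBA was 1.46, and 0.81 with the block and without Btk KO replicate 1. With median centring the median of all tested probe sets in that comparison was -0.10, against 0.01 as deposited, and that of the members 1.35. In Xid against CBA the median member difference ranged from 0.04 to 0.53 when each array was left out.

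Signs turned for Gata1 in Btk KO against CBA (-0.12 to 0.57 when each array was left out, -0.14 with the block and without Btk KO replicate 1) and against Xid (-0.25 to 0.44, and -0.27). In Xid against CBA they turned when each array was left out for Klf1 (-0.31 to 0.14), Slc4a1 (-0.42 to 1.0), Epor (-0.19 to 0.59), Car2 (-0.35 to 0.53) and Alas2 (-0.01 to 0.94). The cause was not tested. The Btk difference between Btk KO and CBA, -1.86 with adjusted p = 0.052, passed with the block (-1.86, adjusted p = 0.0053), a pseudocount of 32 (-1.74, 0.049), the stricter filter (-1.86, 0.047), 1 probe set per gene (-1.86, 0.038) and the block without Btk KO replicate 1 (-2.03, 0.0081). It ranged from -2.18 to -1.53 when each array was left out.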

Other observations

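Of the 69 further erythroid probe sets 20 were too dim to be tested. Within both sets 9 of these read higher in Btk KO than in CBA, 2 lower and 9 neither way. Of all tested probe sets 31.4% were higher in both sets. The share over all dim probe sets was not computed, so these counts have no baseline. The genes named here were chosen after their values were seen, from both directions. Tal1, a master factor of blood formation, read 34.9 and 12.2 in Btk KO, 10.3 and 6.9 in Xid and 2.2 and 2.7 in CBA. Fech, which encodes ferrochelatase, the last enzyme of heme synthesis, read 25.4 and 14.5 in Btk KO, 4.8 and 8.4 in Xid and 5.5 and 4.5 in CBA. Epb42, of the membrane skeleton, read 79.9 and 18.6 in Btk KO, 10.9 and 19.2 in Xid and 2.0 and 16.5 in CBA, and its second probe set 5.1 and 4.2 in Btk KO, 13.4 and 4.1 in Xid and 3.3 and 2.0 in CBA. The 2 that read lower were the embryonic globin gene Hbb-bh1, at 11.1 and 14.4 in Btk KO against 17.5 and 22.6 in CBA, and the dim Ppox probe set, at 1.9 and 6.0 in Btk KO against 3.8 and 11.4 in CBA.

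Red cell precursors divide while they mature, and so do activated lymphocytes. Proliferation genes had a median difference of 0.28 between Btk KO and CBA over 17 probe sets, at 0.45 in set 1 and 0.13 in set 2. Of the 17, 12 were higher in both sets, against 31.4% of all probe sets. Between Xid and CBA the median was -0.18. Limma called 0 of the 17 in each comparison, with and without the block. An unadjusted p under 0.05 was found for 2 in Btk KO against CBA, where 8.83% of all probe sets had one. In Btk KO against Xid it was 4, against 3.61% of all, and in Xid against CBA 1, against 4.43%. That 1 was Top2a, near the floor at 3.8 and 18.5 in Xid and at 36.2 and 26.3 in CBA. Top2a and the dimmest Plk1 probe set passed the filter only through Btk KO.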
